A study of Mus musculus with 15 samples.

Results

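The 10 genes described here encode immune checkpoint receptors and their ligands: the ligands Cd274 (PD-L1), Pdcd1lg2 (PD-L2), Cd80, Cd86 and Lgals9 (galectin-9), and the receptors Pdcd1 (PD-1), Ctla4, Lag3, Havcr2 (TIM-3) and Tigit. They were picked by name from the 32543 named entries of the count table, with earlier results of these data known. All 10 passed the filter on low counts that left 15494 genes. Their RNA was measured in 15 subcutaneous tumors grown in young adult female BALB/c mice labelled WT, from WEHI-164, a mouse fibrosarcoma cell line. Day 0 tumors were untreated, and tumors of days 1, 3, 5 and 7 received poly(I:C), a synthetic double-stranded RNA sensed by Toll-like receptor 3, injected into the tumor. The labels give 1 µg in 25 µL every day with 6 doses planned, but a legend of the study's supplement names a higher amount, so the dose is uncertain. Each day had 3 tumors, 1 from each mouse, and no vehicle-injected group was analysed here, so injection and harvest time cannot be told apart from poly(I:C) itself. The experiment was done once with 1 line.

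Checkpoint receptors restrain T cells and NK cells that have already been activated. PD-1 is engaged by PD-L1 and PD-L2, CTLA-4 takes CD80 and CD86 away from the costimulatory receptor CD28, TIGIT competes with CD226 for nectin family ligands, LAG-3 binds MHC class II, and TIM-3 has been reported to bind galectin-9. PD-L1 is induced by interferons on tumor cells and myeloid cells, while the receptors are carried mostly by T cells and NK cells, with TIM-3 also found on macrophages and dendritic cells.

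Total counts ran from 23.7 to 31.9 mega-counts per tumor, and a count of 3, the limit that a count of 0 allows, was worth 0.0972 to 0.125 CPM (counts set against the library's total after TMM scaling). This limit covers counting error only. The fibroblast and sarcoma markers were present, with Vim at 4840 CPM and Col1a1 at 811 CPM on average on day 0. Day 3 replicate 1 stood apart, with a mean correlation of 0.884 with the other tumors against 0.956 or more for each of those. Its skeletal muscle marker level (mean log2 CPM of 6 genes) was 8.16, while the other tumors lay between -1.42 and 4.14, and it also had the highest T cell, macrophage and dendritic cell marker levels of day 3. The main results that rest on day 3 are therefore also given without it.

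Of the 10 genes, 9 (all but Tigit) were higher in every day 3 tumor than in any day 0 tumor. Over all genes this share was 19.4%. All 10 were lower in every day 7 tumor than in any day 3 tumor, against 18.4% of all genes. Only Lgals9 was already separated from day 0 on day 1, when 5.76% of all genes were higher in every tumor. No gene of the table, and so none of the 10, passed the edgeR test at an adjusted p under 0.05 in any comparison. Over all genes, an unadjusted edgeR p under 0.05 was reached by 489, 4654, 744 and 320 genes on days 1, 3, 5 and 7 against day 0 and by 5502 between days 7 and 3, and DESeq2 called 40, 2003, 11, 5 and 3260. The levels in each tumor are plotted by harvest day.

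**Figure D1:**
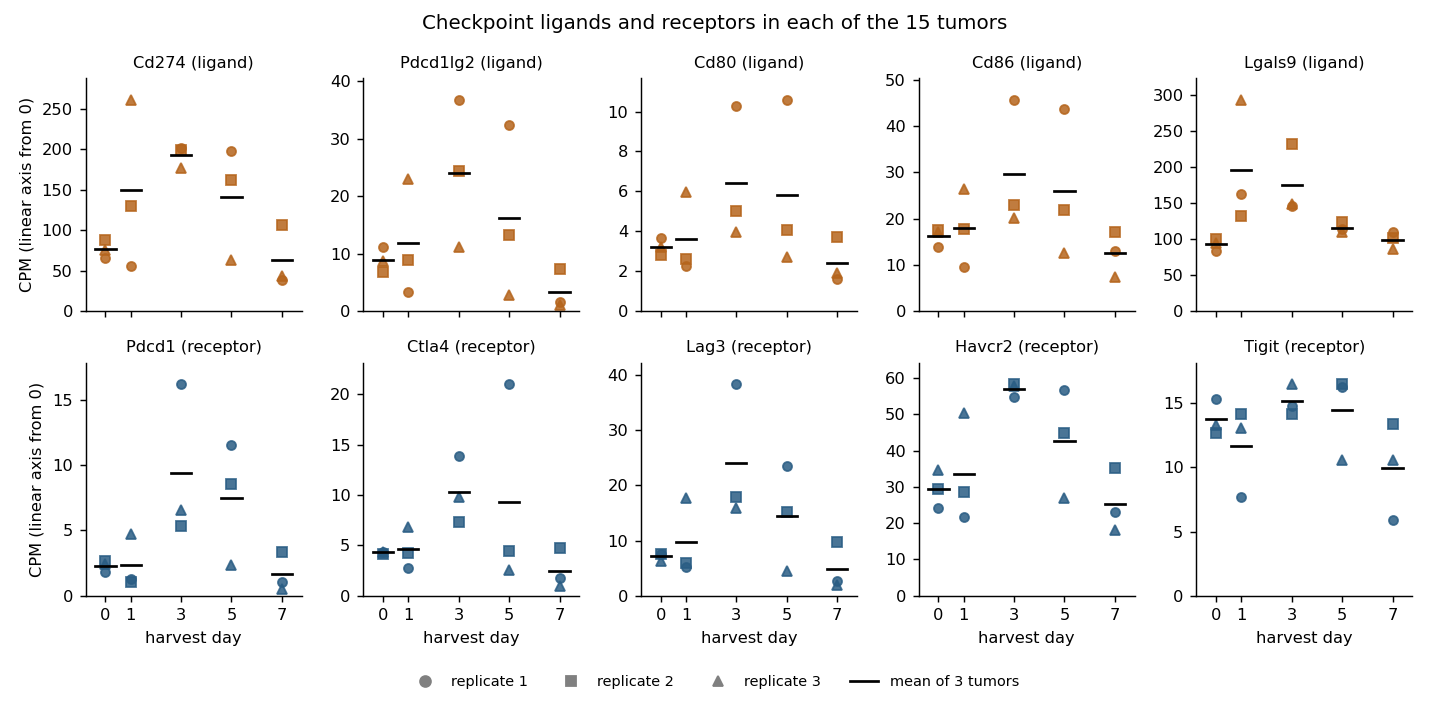
CPM of the 5 ligands (upper row) and 5 receptors (lower row) in each of the 15 tumors by harvest day, on linear axes that start at 0 and differ between panels; symbols are replicates and bars are means of 3 tumors. The 3 day 3 tumors lie above all day 0 tumors in each panel but that of Tigit, and single tumors of days 1 and 5 stand far from the other two of their day.

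Levels of different genes were compared as CPM per kb of exon. On day 0, Lgals9 was the most abundant at 43.3 CPM per kb (mean, n = 3), followed by Cd274 at 21.2, Tigit at 15 and Havcr2 at 10.8 CPM per kb. Lower came Pdcd1lg2 at 4.53, Cd86 at 4.42, Lag3 at 3.38, Ctla4 at 1.84, Pdcd1 at 1.19 and Cd80 at 0.871 CPM per kb. Neighbours in this order did not overlap between tumors, except Pdcd1lg2 with Cd86 and Pdcd1 with Cd80. The ligands galectin-9 and PD-L1 therefore had more RNA per length in untreated tumors than any of the receptors. On day 3, Lgals9 at 82.0 and Cd274 at 53.1 CPM per kb still led. Havcr2, at 20.9 CPM per kb, then stood above Tigit at 16.5 without overlap, which is the reverse of their day 0 order. This reversal depends on the exon lengths used, 2721 bases for Havcr2 and 919 for Tigit. In CPM, Havcr2 was above Tigit on both days, at 29.3 against 13.8 on day 0 and 57.0 against 15.2 on day 3. From Tigit down to Ctla4, all neighbours overlapped on day 3.

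**Figure D2:**
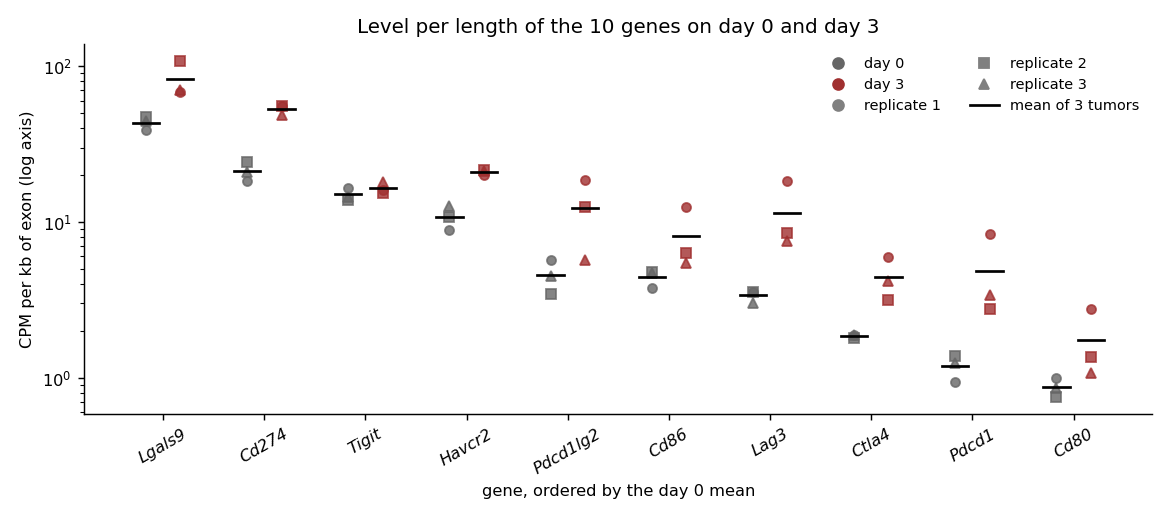
CPM per kb of exon (log axis) of the 10 genes on day 0 (grey) and day 3 (red), ordered by the day 0 mean, with symbols for replicates and bars for means of 3 tumors. Lgals9 and Cd274 lead on both days, and Havcr2 passes Tigit, which has nearly the same level on both.

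Cd274 (ENSMUSG00000016496.7, plus strand of chromosome 19 from 29367455 to 29388095 on GRCm38) encodes PD-L1. Its level was 65.8, 88.1 and 76.0 CPM in the day 0 tumors and 56.2, 130 and 261 CPM on day 1. On day 3 it was 201, 199 and 177 CPM, on day 5 it was 198, 162 and 63.3 CPM, and on day 7 it was 38.4, 106 and 43.3 CPM. The day 3 tumors lay close together and above all of day 0, whereas the day 1 tumors ran from below day 0 to the highest value of the course. Day 3 was 2.51-fold day 0, a log2 change of 1.33 ± 0.53 (SE; edgeR adjusted p = 0.137), and day 7 was lower than day 3 by 1.62 ± 0.54 on the log2 scale (edgeR adjusted p = 0.0848). The day 3 difference was 1.30 without day 3 replicate 1. An antisense gene, AC119228.1, overlaps Cd274 on the other strand, and the strand setting of the counting is not given in the sources used here.

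Pdcd1lg2 (ENSMUSG00000016498.10, chromosome 19 plus strand, bases 29410919 to 29471161), the neighbouring gene, encodes PD-L2. It was at 11.1, 6.74 and 8.81 CPM on day 0, at 36.8, 24.3 and 11.2 CPM on day 3 and at 1.63, 7.42 and 1.05 CPM on day 7. Of the 10 genes it had the widest span over the 15 tumors, 35.2-fold from 1.05 to 36.8 CPM, and the spread within days was wide too, with 3.34 to 23.0 CPM on day 1 and 2.80 to 32.3 CPM on day 5. The highest day 0 tumor and the lowest day 3 tumor were nearly equal. Its day 3 difference was 1.44 ± 0.89 in log2 (SE; edgeR adjusted p = 0.266) and 1.00 without day 3 replicate 1. The difference between days 7 and 3 was the largest of the 10 genes at -2.83 ± 0.95 (edgeR adjusted p = 0.0852). The antisense gene A930007I19Rik overlaps it.

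Cd80 (ENSMUSG00000075122.5, chromosome 16 plus strand, 38455561 to 38496335) and Cd86 (ENSMUSG00000022901.13, chromosome 16 minus strand, 36603869 to 36666081) encode the ligands shared by CD28 and CTLA-4 on antigen presenting cells. Cd80 ranged from 2.79 to 3.68 CPM on day 0 and reached 10.3, 5.04 and 3.97 CPM on day 3. Cd86 ranged from 13.9 to 17.5 CPM on day 0 and was 45.7, 22.9 and 20.1 CPM on day 3. For both, the day 3 mean was drawn up by replicate 1, and on day 5 replicate 1 alone was as high, at 10.6 CPM for Cd80 and 43.6 CPM for Cd86. The log2 differences on day 3 were 1.00 ± 0.55 for Cd80 (SE; edgeR adjusted p = 0.221) and 0.87 ± 0.48 for Cd86 (edgeR adjusted p = 0.222), and they were 0.48 and 0.42 without day 3 replicate 1.

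Lgals9 (ENSMUSG00000001123.15, chromosome 11, minus strand, 78962974 to 78984946) encodes galectin-9, a secreted lectin. Day 0 tumors had 83.0, 100 and 94.3 CPM, and day 1 tumors had 162, 132 and 293 CPM. Levels were 146, 231 and 149 CPM on day 3, then 114, 124 and 109 CPM on day 5 and 109, 101 and 86.1 CPM on day 7. Every tumor of days 1, 3 and 5 was above every day 0 tumor, while day 7 overlapped day 0. The day 1 mean was the highest of the course, at 2.12-fold day 0 (log2 1.08 ± 0.26, SE; unadjusted p = 0.00112, edgeR adjusted p = 0.641), and the alternative tool DESeq2 called it (adjusted p = 0.0268). The day 3 difference was 0.92 ± 0.26 (edgeR adjusted p = 0.115) and DESeq2 called it with an adjusted p of 0.0167. Harvest day held 69.5% of the variance of log2 CPM of Lgals9, the largest share of the 10 genes, against 38.3% for Cd86 at the other end.

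Promoter windows of RefSeq (GRCm38.p6, 250 bases before to 50 after each start) were at hand for 8 of the 10 genes, all but Cd86 and Lag3, and were searched on both strands for the letters of motifs, of which 2 are described here. The ISRE core, bound by interferon-activated factors, was spelled GAAANNGAAA, and the NF-kB consensus was searched by name. Lgals9 alone held the ISRE core, in 2 places, at -55 to -46 and at 16 to 25 counted from the start of the transcript, both on the opposite strand. Of all 32851 windows 3.44% held this motif. Pdcd1lg2 alone held the NF-kB consensus (GGGGAATCCC, at -244 to -235), found in 5.89% of all windows. The stretch from 100 bases before to 30 bases after the start is shown 5′ to 3′ along each gene for the gene that was separated earliest, for PD-L1, for PD-1 and for the gene that moved least, with motif matches in capitals.
Lgals9 (minus strand, chr11:78984895-78985024): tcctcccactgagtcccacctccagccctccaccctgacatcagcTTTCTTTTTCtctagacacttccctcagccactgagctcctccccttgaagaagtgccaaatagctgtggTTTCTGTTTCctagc
Cd274 (plus strand, chr19:29367338-29367467): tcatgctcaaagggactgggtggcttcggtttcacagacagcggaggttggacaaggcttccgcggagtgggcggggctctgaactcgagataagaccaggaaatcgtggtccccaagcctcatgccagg
Pdcd1 (minus strand, chr1:94052524-94052653): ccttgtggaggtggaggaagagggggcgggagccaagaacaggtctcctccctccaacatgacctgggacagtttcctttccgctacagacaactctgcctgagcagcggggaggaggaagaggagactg
Tigit (minus strand, chr16:43664155-43664284): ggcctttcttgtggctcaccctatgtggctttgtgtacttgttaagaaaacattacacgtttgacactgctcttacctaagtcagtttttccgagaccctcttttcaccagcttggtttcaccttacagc
A match describes letters only, and its absence says only that these letters are not in the window.

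Pdcd1 (ENSMUSG00000026285.7, chromosome 1 minus strand, 94038305 to 94052553) encodes PD-1, the receptor of PD-L1 and PD-L2. It was low, at 1.82, 2.64 and 2.40 CPM on day 0 and 1.27, 1.08 and 4.70 CPM on day 1. It was 16.2, 5.33 and 6.58 CPM on day 3, 11.5, 8.54 and 2.37 CPM on day 5 and 1.06, 3.38 and 0.543 CPM on day 7. Day 3 had the largest fold of the 10 genes, 4.09-fold day 0 (log2 2.03 ± 0.77, SE; edgeR adjusted p = 0.128; DESeq2 adjusted p = 0.0461), and the difference was 1.38 without day 3 replicate 1 (DESeq2 adjusted p = 0.402). In bulk tumors, fewer cells of a type and less RNA per cell cannot be told apart.

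Ctla4 (ENSMUSG00000026011.13, chromosome 1 plus strand, 60887000 to 60915832) encodes the receptor that binds CD80 and CD86. It differed little among day 0 tumors, at 4.35, 4.17 and 4.36 CPM, and was 13.9, 7.32 and 9.77 CPM on day 3. On day 5 replicate 1 had the highest level of the course, 21.0 CPM, while the other two had 4.45 and 2.55 CPM. Without this tumor the day 5 difference turned from 1.12 to -0.30 in log2. The day 3 difference was 1.26 ± 0.71 (SE; edgeR adjusted p = 0.227) and 0.99 without day 3 replicate 1. A processed pseudogene, Rpl18-ps1, lies inside the gene on the same strand.

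Lag3 (ENSMUSG00000030124.2, chromosome 6 minus strand, 124904361 to 124911705) was at 7.49, 7.52 and 6.37 CPM on day 0 and at 38.4, 17.9 and 15.9 CPM on day 3. On day 7 it was 2.73, 9.74 and 2.01 CPM. The lowest day 3 tumor was far above the narrow day 0 range. The day 3 difference was 1.76 ± 0.70 in log2 (SE; edgeR adjusted p = 0.135), or 3.38-fold, and it was 1.25 without day 3 replicate 1.

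Havcr2 (ENSMUSG00000020399.14, chromosome 11 plus strand, 46454935 to 46481255) was at 24.1, 29.3 and 34.6 CPM on day 0 and at 54.7, 58.3 and 57.9 CPM on day 3, the tightest day 3 group of the 10 genes by ratio. It was 56.6, 44.8 and 26.8 CPM on day 5 and 23.0, 35.2 and 18.0 CPM on day 7. The day 3 difference was 0.96 ± 0.33 in log2 (SE; edgeR adjusted p = 0.118; DESeq2 adjusted p = 0.0414). Without day 3 replicate 1 it was 0.99, and the DESeq2 adjusted p was 0.215.

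Tigit (ENSMUSG00000071552.5, chromosome 16 minus strand, 43648867 to 43664146) was at 15.3, 12.7 and 13.3 CPM on day 0, 7.72, 14.2 and 13.1 CPM on day 1 and 14.8, 14.2 and 16.5 CPM on day 3. It was 16.3, 16.5 and 10.6 CPM on day 5 and 5.94, 13.4 and 10.6 CPM on day 7. Day 3 overlapped day 0, and the span over all tumors was the smallest of the 10 genes at 2.78-fold. The day 3 difference was 0.14 ± 0.29 in log2 (SE; edgeR adjusted p = 0.73) with a 95% interval from -0.48 to 0.76. Whether it differed from the other receptors in this was not tested.

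Read against the whole table, the day 1 result was Lgals9 alone. EdgeR called 0 genes (0%) on day 1. At an unadjusted edgeR p under 0.05, 1 of the 10 genes was higher on day 1 against 2.18% of all genes, DESeq2 called 1 higher against 0.239%, and 1 was higher in every tumor against 5.76%. The median log2 change of the 10 was 0.18, beside -0.000244 over all genes. Cd274, at 0.96 ± 0.53 (SE; edgeR adjusted p = 1), overlapped day 0. Without day 1 replicate 3, the tumor with the highest type I interferon level, 7 of the 10 differences on day 1 changed sign, while Lgals9 stayed at 0.67 or more in log2 whichever tumor was left out.

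Day 3 was the day on which most of the 10 genes were higher. EdgeR called 0 genes (0%), with adjusted p from 0.115 (Lgals9) to 0.73 (Tigit) for the 10. At an unadjusted edgeR p under 0.05, 5 genes were higher (Lgals9, Havcr2, Pdcd1, Lag3 and Cd274) against 18.3% of all genes. DESeq2 called 3 higher (Lgals9, Havcr2 and Pdcd1) against 9.02%, and 9 were higher in every tumor against 19.4%. The median of the 10 was 1.13 in log2 beside -0.0248 over all genes. Day 3 replicate 1, with its high muscle, T cell and macrophage marker levels, had the highest value of the course for 4 of the 10 genes, and the part of those cells in the result was not tested. Without it, 2 of the 10 had an unadjusted edgeR p under 0.05, DESeq2 called only Lgals9 (adjusted p = 0.0467), and without day 0 replicate 1 only 1 was left at an unadjusted p under 0.05.

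On day 5 edgeR called 0 genes (0%). Pdcd1 alone had an unadjusted edgeR p under 0.05 (log2 1.70 ± 0.77, SE; unadjusted p = 0.0454) against 1.41% of all genes higher. This count ran from 0 to 4 of the 10 when 1 tumor was left out, with 4 without day 5 replicate 3 and 0 without any 1 day 0 tumor. All 10 differences were above 0 on day 5, beside 50.3% of all genes, with a median of 0.85. Lgals9 alone was higher in every day 5 tumor, against 6.89%. Of the day 5 tumors, replicate 1 was the highest for all genes but Lgals9 and Tigit, and replicate 3 was the lowest for all 10. On day 7 against day 0 edgeR called 0 genes (0%), and 0 of the 10 were lower at an unadjusted edgeR p under 0.05, against 1.02% of all genes. Differences ran from -1.40 ± 0.91 (Pdcd1lg2) to 0.09 ± 0.25 (Lgals9), and all overlapped day 0. Only 1 of the 10 (Lgals9) was above 0, beside 44.4% of all genes.

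The comparison of day 7 with day 3 gave the widest separation. It sets the harvest with the highest median log2 change of the 10 genes from day 0 against one after the last planned dose. A wide separation is therefore partly set by this choice. EdgeR called 0 genes (0%), with adjusted p between 0.0832 and 0.151 for the 10. All 10 were lower in every day 7 tumor, against 18.4% of all genes, 9 were lower at an unadjusted edgeR p under 0.05 (all but Tigit) against 22.6%, and DESeq2 called 7 lower (all but Cd80, Cd86 and Tigit) against 15.1%. The differences were largest for Pdcd1lg2, 7.13-fold lower, and Pdcd1, 5.61-fold lower, followed by Lag3 at 4.98-fold and Ctla4 at 4.18-fold. They were smallest for Lgals9 at 1.77-fold and Tigit at 1.52-fold. Without day 3 replicate 1 the log2 differences were -2.39 for Pdcd1lg2, -1.82 for Pdcd1, -1.80 for Lag3, -1.78 for Ctla4, -0.88 for Cd80 and -0.76 for Cd86, and the median of the 10 was -1.38 in place of -1.51. Over fits that left out any 1 tumor they ran from -4.17 to -2.39 for Pdcd1lg2, from -3.54 to -1.82 for Pdcd1, from -3.34 to -1.80 for Lag3 and from -2.95 to -1.67 for Ctla4. Without day 3 replicate 1, DESeq2 gave an adjusted p to only 3 of the 10, 0.162 for Cd274, 0.0855 for Havcr2 and 0.0678 for Lgals9, and none to the other 7. EdgeR called 2 of the 10 without day 3 replicate 3. Tested together against day 0, the 4 treated days gave 0 calls by edgeR (0%), with 5 of the 10 (Lgals9, Pdcd1, Havcr2, Lag3 and Cd274) at an unadjusted p under 0.05 against 16.2% of all genes.

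**Figure D3:**
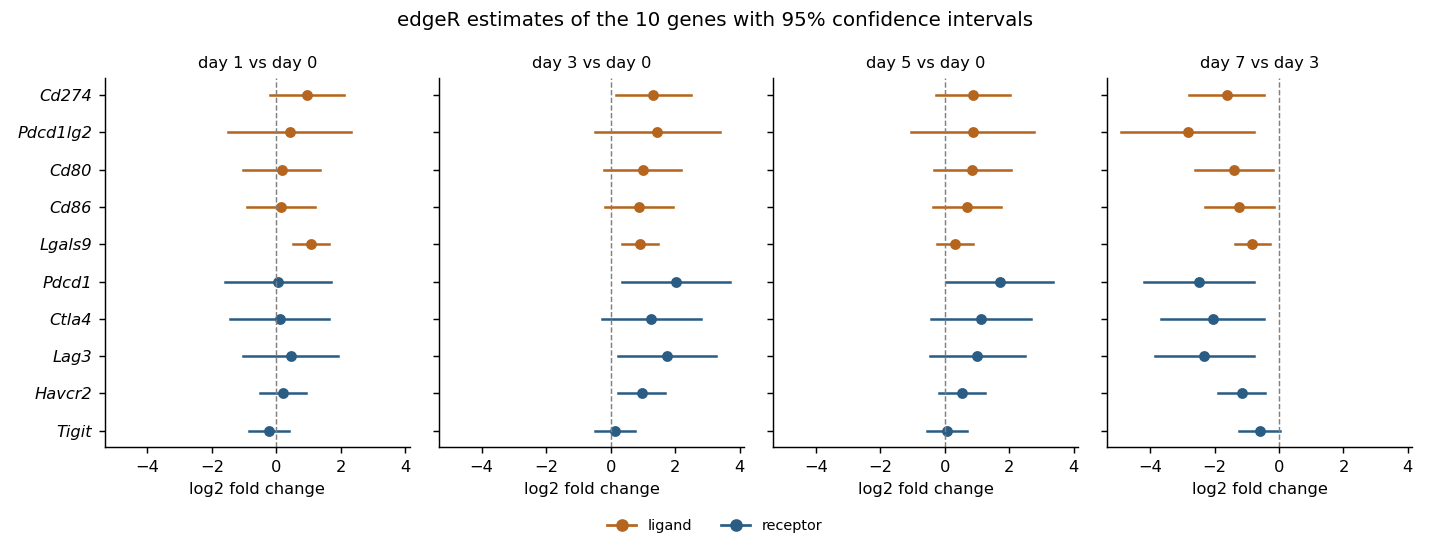
Log2 fold changes of the 10 genes from edgeR (points) with 95% confidence intervals (lines) for day 1, day 3 and day 5 against day 0 and day 7 against day 3, ligands in brown and receptors in blue. On day 1 the interval of Lgals9 alone lies above 0, and between days 7 and 3 those of 9 genes lie below 0.

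Levels of most immune cell genes listed were also higher on day 3, like those of the 10 genes other than Tigit. Lgals9 and Tigit were the least related to the T cell and macrophage levels, as given below. All 11 T cell markers were higher in every day 3 tumor than in any day 0 tumor, against 19.4% of all genes. Their median log2 change was 2.03 (1.35 without day 3 replicate 1). For the 12 macrophage and monocyte markers, 10 were separated in this way, and the median was 1.44 (0.96 without that tumor). The mean T cell marker level (log2 CPM) lay between 1.62 and 2.11 on day 0, between 3.18 and 4.98 on day 3 and between 0.23 and 2.57 on day 7. The mean NK cell marker level lay between 2.55 and 3.02 on day 0, between 4.15 and 5.20 on day 3 and between 1.22 and 3.54 on day 7. Of its 6 genes, 5 were higher in every day 3 tumor (all genes 19.4%). Regulatory T cell markers had a lower median day 3 change than the other immune lists, 0.86 (0.46 without day 3 replicate 1). B cell markers had a median day 3 change of 1.46 (1.4 without day 3 replicate 1) and dendritic cell markers one of 1.27 (0.37 without it). Skeletal muscle markers had one of 2.91 (-0.17 without it) and adipocyte markers one of 1.97 (0.24 without it). Their part in the results was not tested, but the receptors were set against the mean log2 CPM of Cd3d, Cd3e, Cd3g and Cd247, which form the signalling complex of the T cell receptor.

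Relative to this complex, Tigit was lower on day 3, and the other receptors overlapped day 0. Tigit itself changed by only 0.14 in log2 on day 3, while the complex genes rose by 1.98 to 2.29. Whether T cells carried less Tigit was not tested. Pdcd1 was at -0.44 ± 0.17 on day 0 and -0.51 ± 0.10 on day 3 in log2 (SD, n = 3; exact two-sided permutation p = 0.7). Lag3 was 1.18 ± 0.50 and 0.90 ± 0.31 (exact p = 0.6), and Ctla4 was 0.46 ± 0.45 and -0.25 ± 0.52 (exact p = 0.2). Each day 3 tumor had less Tigit against the complex than each day 0 tumor, with 2.77, 1.73 and 1.87 on day 0 and -0.75, 0.90 and 0.90 on day 3. The difference was -1.77 (exact p = 0.1, the smallest that 3 against 3 tumors allow, Benjamini-Hochberg adjusted p = 0.489 over 22 comparisons). On day 7 the relative level of Tigit was again higher, at 1.70, 1.38 and 3.11, a difference of 1.71 from day 3 (exact p = 0.1). Leaving out any 1 tumor kept the day 3 difference of Tigit between -2.05 and -1.22. Havcr2, which macrophages also carry, was at 3.20 ± 0.25 on day 0 and 2.26 ± 0.98 on day 3 (SD, n = 3; exact p = 0.2), with overlap. Its difference of -0.94 was -0.38 without day 3 replicate 1.

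**Figure D4:**
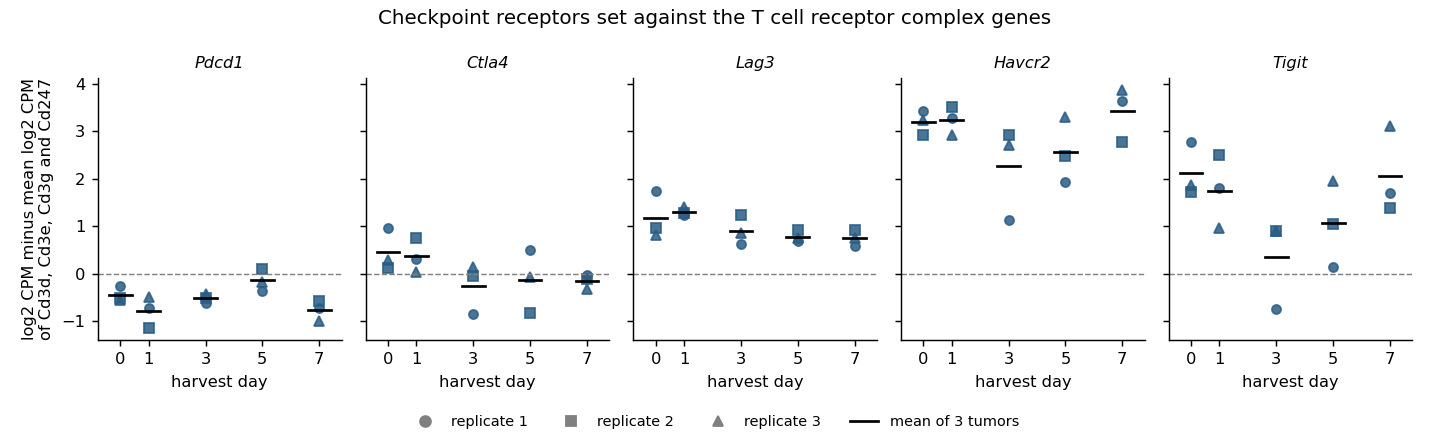
Log2 CPM of each receptor gene minus the mean log2 CPM of Cd3d, Cd3e, Cd3g and Cd247 in each tumor by harvest day, with symbols for replicates and bars for means of 3 tumors. Pdcd1 stays between -1.14 and 0.10, and Tigit on day 3 lies between -0.75 and 0.90, below its day 0 range of 1.73 to 2.77.

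The ligands and Havcr2 were set against the mean log2 CPM of the macrophage genes Adgre1, Csf1r, Cd68 and Itgam. These genes are part of the list of 12 macrophage and monocyte markers, and they rose by 0.97 to 1.91 in log2 on day 3. The lowest of the 12 were Mrc1 (-0.39) and Cd14 (0.26), so the relative levels depend on the genes chosen. On day 3 the difference from day 0 was 0.04 for Cd274 (exact p = 0.9), 0.01 for Pdcd1lg2 (exact p = 1) and -0.40 for Lgals9 (exact p = 0.7). Cd86 was lower relative to these genes in every day 3 tumor, at -3.68, -3.47 and -3.87 against -3.21, -3.15 and -3.11 on day 0 (difference -0.52, exact p = 0.1, the smallest possible). Between days 3 and 7, Pdcd1lg2 alone was separated, with -3.99, -3.38 and -4.70 on day 3 and -6.48, -4.88 and -6.45 on day 7 (difference -1.91, exact p = 0.1). The other relative levels overlapped in both comparisons. Over all 22 such comparisons, those with an exact p of 0.1 had a Benjamini-Hochberg adjusted p of 0.489, and with 3 tumors per group none could reach 0.05.

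Over the 15 tumors, the receptor most closely related to the T cell complex level was Pdcd1, with Pearson r = 0.978 and Spearman rho = 0.986 (permutation p = 1e-05 for each, the smallest that the 100000 permutations can give; adjusted p = 2e-05 over 20 relations for Pearson). Pearson r was 0.969 without the 2 tumors farthest from the median level and 0.976 for deviations from day means. Lag3 followed with r = 0.962 (rho = 0.936, permutation p = 1e-05 for both, within days 0.955). For Tigit r was 0.628 (permutation p = 0.0109, adjusted 0.0128) and rho 0.743 (permutation p = 0.00194), with 0.638 without the 2 farthest tumors and 0.473 within days. Lgals9 had the lowest value, r = 0.419 (permutation p = 0.121, adjusted 0.121), with rho = 0.457 (permutation p = 0.0893). The ligands Cd274, Pdcd1lg2, Cd80 and Cd86 lay between 0.860 and 0.935. With the macrophage level, r ran from 0.468 (Lgals9) to 0.925 (Pdcd1). The permutations did not keep harvest days apart, so their p-values also reflect the shared course over the days. The values within days carry no p. T cell and macrophage genes moved together, so these correlations do not assign a gene to a cell type.

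The 3 tested genes whose log2 CPM ranked the tumors most like each of the 10 were found by Spearman's rho over 15 tumors, as a description. Pdcd1 was closest to Cd3g (0.996) and Cd8a (0.993), the T cell receptor subunit and the CD8 coreceptor, and to Pglyrp2 (0.989). Ctla4 was closest to the costimulatory receptor gene Icos (0.986), AMICA1 (0.982) and Cd28 (0.982). Lgals9 was closest to Phf11d (0.975), the interferon-induced Oas1g (0.971) and Misp (0.964). Cd86 was closest to Pfkfb3 (0.989), the MHC class II invariant chain gene Cd74 (0.982) and Litaf (0.982). Cd274 was closest to Chpf2, the interferon receptor gene Ifnar2 and Il7r (0.986 each), and Cd80 to Csf2rb2, Phf7 (0.986 each) and Cxcr6 (0.982). Lag3 was closest to Ppm1j (0.996), Smim24 and Znf41-ps (0.993 each), Pdcd1lg2 to App, Mgat1 and Tnfrsf1a (0.975 each), and Havcr2 to Nudt16 (0.964), Cd37 and Dennd1c (0.961 each). Tigit had the loosest neighbours, Itsn1 (0.907), Mcur1 and Ogdh (0.886 each). Without day 3 replicate 1, 2 or 3 of the 3 neighbours were kept for each gene.

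Other genes of the pathway were followed through lists written from general knowledge, also with earlier results of these data known. In a list of 21 other inhibitory receptors and ligands, 20 were tested, 14 were higher in every day 3 tumor than in any day 0 tumor (all genes 19.4%) and 14 had an unadjusted edgeR p under 0.05 and were higher (all genes 18.3%). The median log2 change was 1.17 (0.77 without day 3 replicate 1). The largest values were those of Cd96 (2.46 ± 0.72, SE), a receptor that shares its ligand with TIGIT, and Cd200r1 (1.72 ± 0.57), an inhibitory receptor of myeloid cells. The smallest were those of Nectin3 (-0.55 ± 0.21) and Pvr (-0.32 ± 0.23), which encode adhesion ligands of the TIGIT and CD226 family. DESeq2 called Cd96 higher on day 3 (adjusted p = 0.0161). Vtcn1 was not tested, with at most 14 counts in a tumor.

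Costimulatory genes showed a like picture, with 13 of 15 tested, 8 higher at an unadjusted edgeR p under 0.05 (all genes 18.3%) and a median of 1.5 on day 3 (0.76 without day 3 replicate 1). Cd226 (2.35 ± 1.04, SE), the activating counterpart of TIGIT, and Cd28 (2.27 ± 0.75) had the largest values, and Tnfsf9 (-0.48 ± 0.24) and Tnfrsf9 (0.07 ± 0.35) the smallest. The next list held 10 transcription factors linked to T cell exhaustion, a state not measured here. Of these, 9 were tested and 3 were higher at an unadjusted edgeR p under 0.05 (all genes 18.3%). The median was 1.11 (0.50 without day 3 replicate 1), and Tbx21 (2.22 ± 0.94) and Batf (1.93 ± 0.67) had the largest values. The lowest were Nr4a2 (-0.28 ± 0.20) and Tcf7 (-0.85 ± 0.20), a factor of naive and stem-like T cells that other cells also use, and DESeq2 called Tcf7 lower (adjusted p = 0.00699). Of 7 inhibitory enzymes and cytokines, 2 were higher, a share near the 18.3% of all genes, and 1 was lower at that threshold, with Il10 (2.44 ± 0.82) and Nos2 (1.46 ± 0.77) the highest and Nt5e (-0.66 ± 0.18) and Arg1 (-0.17 ± 0.44) the lowest.

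Genes of the interferon gamma pathway and of the type I interferon response were also listed. Of 7 genes of the interferon gamma pathway, 4 were higher at an unadjusted edgeR p under 0.05 on day 3 (all genes 18.3%) and the median was 0.40, with Ifng itself at 1.58 ± 0.72 (SE), Jak1 at 0.23 ± 0.12 and Jak2 at -0.20 ± 0.13. All 10 genes of the type I interferon response were higher in every day 1 tumor than in any day 0 tumor (all genes 5.76%). Their median was 1.68 on day 1 and 1.35 on day 3. DESeq2 called 6 higher on day 1 (all genes 0.239%) and 7 on day 3 (all genes 9.02%). Lgals9 was the one checkpoint gene separated from day 0 at the same harvest as these 10 genes. Beside all genes, whose median was near 0 on each day, the day 3 medians of the 10 checkpoint genes and of the T cell, myeloid, inhibitory and costimulatory lists all lay above 1. Without day 3 replicate 1 they were 1.00 for the checkpoint genes, 1.35 for the T cell, 0.96 for the myeloid, 0.77 for the inhibitory and 0.76 for the costimulatory list.

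**Figure D5:**
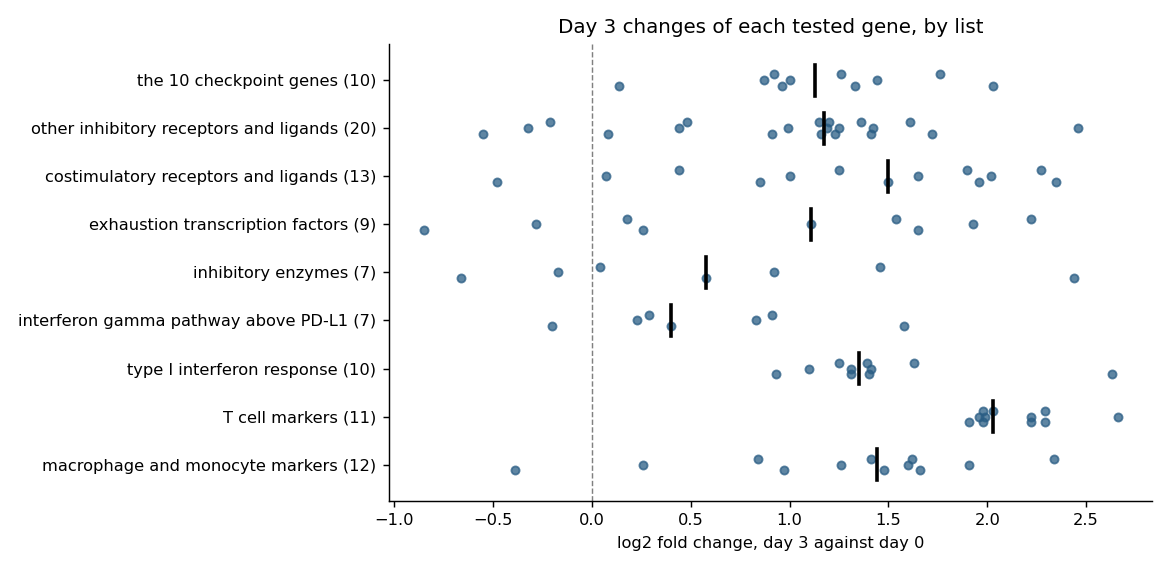
Log2 fold change of day 3 against day 0 (edgeR) of each tested gene (points), by list, with the median of each list as a bar and the number of genes tested in brackets. The 10 checkpoint genes have a median of 1.13, with Tigit alone near 0, between the interferon gamma pathway at 0.40 and the T cell markers at 2.03.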

How the data were processed

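RNA was sequenced from 15 WEHI-164 tumors, 3 on each of 5 harvest days, and groups and replicate numbers were taken from the labels of each tumor. The authors sequenced poly(A) RNA as single-end reads, quantified transcripts with kallisto and collapsed them to genes with tximport, with mm10 (GRCm38) as reference. The deposited values are estimated counts of each gene, already whole numbers, in 1 column per tumor without pooling or normalization by the authors, so no rounding was needed. The transcript set and the use of strand are not given in the sources used here. Of 32544 entries, 9156 had no counts, and 1 whose name had become a date (at most 0.0268% of a tumor's counts) was left out. Reads that fit several transcripts are divided among them by kallisto, but none of the 10 genes shared identical counts with another gene. Replicates of a day differed by more than sampling noise (chi-square per degree of freedom from 9.56 to 284), and p-values measure the spread between tumors of 1 experiment.

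Genes passing the study's CPM minimum (8.68 to 11.7 counts, by tumor) in at least 3 tumors were kept, which left 15494. The main test was edgeR 4.0.16 in R 4.3.3, with TMM factors, its quasi-likelihood test (two-sided), harvest day as the only term, all 15 tumors in 1 fit and Benjamini-Hochberg adjustment over all genes tested, with a call at an adjusted p under 0.05. Standard errors and 95% intervals come from the same fit. DESeq2 1.42.0 was the alternative tool, which the study lists among its software without tying it to the time course. Relative levels are differences of log2 CPM (prior count 2) per tumor, compared with exact permutation tests. Correlations used 100000 permutations with scipy 1.17.1. The scripts were tested on simulated data. Other alternatives were DESeq2's size factors, no filter (23387 genes), a fit of the 2 groups compared, the replicate number as a block, a prior count of 0.5 and leaving out each tumor. DESeq2 without day 3 replicate 1 was added after seeing the data.

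All 10 genes were named with their values, likewise the 3 tested genes most like each, and from each list the 2 with the smallest and the 2 with the largest day 3 change. The 10 genes and the lists were chosen with earlier results of these data known. Coordinates and exon lengths are those of GENCODE M21 on GRCm38, counted from 1, and promoter windows those of RefSeq on GRCm38.p6. Of the interferon gamma list, 1 gene is not reported here by name, nor is 1 of the motifs searched. A search for protein motifs in the receptors was not run, and protein sequences were not used here.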

Additional observations from a re-analysis of the deposited data

How the results depend on the processing

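The alternative that moved the counts most was the tool. DESeq2 called 40 genes on day 1 (1 of the 10 checkpoint genes), 2003 on day 3 (3), 11 on day 5, 5 on day 7 against day 0, 3260 between days 7 and 3 (7) and 1176 in the joint test (2), where edgeR called 0. Without day 3 replicate 1, a setting chosen after seeing the data, DESeq2 called 74 genes (1), 86 (1), 19, 15, 90 and 186 (1) in the same order, with no adjusted p for 7 of the 10 between days 7 and 3. A fit of only the 2 groups called 1 gene on day 5 and 1 on day 7 against day 0, and it was not run for the joint test. With each tumor left out in turn, edgeR called from 0 to 61 genes on day 3 (61 without day 1 replicate 3, 2 without day 3 replicate 3), with 0 of the 10, and from 0 to 2091 between days 7 and 3 (2091 with 2 of the 10 without day 3 replicate 3, 58 without day 1 replicate 3, 1 without day 7 replicate 2). The cause was not tested. Of the 10 genes, from 1 (without day 0 replicate 1) to 6 had an unadjusted edgeR p under 0.05 on day 3, from 6 (without day 7 replicate 1 or 3) to 10 between days 7 and 3, where leaving out day 3 replicate 1 gave 7, from 0 to 3 on day 7 against day 0 (3 without day 7 replicate 2) and from 2 to 8 in the joint test.

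The 10 log2 differences kept their sign under each alternative on day 3, on day 7 against day 0 and between days 7 and 3. On day 1 the sign of 7 genes turned in some fit with a tumor left out, with ranges from -0.53 to 0.85 for Pdcd1lg2, -0.96 to 0.38 for Pdcd1, -0.31 to 0.37 for Ctla4, -0.34 to 0.74 for Lag3, -0.22 to 0.43 for Havcr2, -0.40 to 0.42 for Cd80 and -0.24 to 0.45 for Cd86. On day 5 it turned for Pdcd1lg2 (-0.15 to 1.36), Ctla4 (-0.30 to 1.57) and Tigit (-0.03 to 0.26).

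Relative levels near 0 turned sign in the same way. Against the T cell complex the ranges were -0.13 to 0.02 for Pdcd1 and -0.46 to 0.01 for Lag3 on day 3, and -0.20 to 0.29 for Ctla4 and -0.29 to 0.02 for Lag3 between days 7 and 3. Against the macrophage genes they were -0.22 to 0.37 for Cd274, -0.31 to 0.35 for Pdcd1lg2, -0.86 to 0.08 for Lgals9 and -0.58 to 0.07 for Havcr2 on day 3, and -0.29 to 0.15 for Cd80, -0.06 to 0.14 for Cd86, -0.03 to 0.90 for Lgals9 and -0.36 to 0.28 for Havcr2 between days 7 and 3. The differences of Tigit (-2.05 to -1.22 on day 3), of Cd86 on day 3 (-0.62 to -0.42) and of Pdcd1lg2 between days 7 and 3 (-2.44 to -1.59) kept their sign.

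The labels number the replicates of each day 1 to 3, and the numbers gave no sign of pairing. Of 30 pairs with the same number on different days, 9 had correlated deviations over 0.1 (median -0.0959, from -0.619 to 0.511). Among 60 pairs with other numbers, 28 did (median 0.0212). With so few tumors a day this cannot exclude a pairing. With the replicate block edgeR called 0 genes in each comparison, and the number of checkpoint genes at an unadjusted p under 0.05 was 5 on day 3, 0 on day 5, 9 between days 7 and 3 and 2 in the joint test.

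With 3 tumors a day an exact test cannot go below 0.1. The lowest counts in a tumor were 13 for Pdcd1, 22 for Ctla4 and 25 for Pdcd1lg2.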
